A study of Mus musculus with 4 samples.

Results

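The effect of a constitutively activated aryl hydrocarbon receptor (AhR) was compared between liver and duodenum, gene by gene. For each gene the log2 ratio of the transgenic to the wild-type signal in liver was set against the same log2 ratio in duodenum. A gene was a member when at least 1 of its probe sets had a signal of 300 or more on at least 1 liver array and on at least 1 duodenum array. Of the 18194 genes with a named probe set, 8807 met this rule. The rule used the brightness of a gene on any 1 array of a tissue, so it was not independent of the genotype ratio. In liver 727 members reached the minimum on the transgenic array alone and 557 on the wild-type array alone. In duodenum these counts were 495 and 1003. For those members the rule fixed the direction of the ratio.

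The series holds 4 Affymetrix mouse arrays, each hybridised with RNA pooled from 3 female mice aged 5 to 6 weeks and kept on standard chow. The groups were wild-type liver, liver of mice carrying the activated AhR transgene, wild-type duodenum and duodenum of the transgenic mice. Neither the strain background nor the promoter that drives the transgene is named in the sources used here. Each group was 1 array, so no value below has a replicate error and no test was possible. Every difference is a difference between pools.

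AhR is a ligand-activated transcription factor of the basic helix-loop-helix PAS family. In its active form it pairs with ARNT and binds DNA at elements with the core GCGTG, and Cyp1a1, Cyp1a2, Cyp1b1, Tiparp and Ahrr are its best known target genes. Liver and small intestine are the main organs that handle foreign chemicals entering with food.

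The tissue labels were checked against marker genes. The signals of 12 hepatocyte markers on the array summed to 650718 and 479391 in the wild-type and transgenic liver pools, and to 26726 and 26903 in the duodenum pools. For 14 enterocyte markers the sums were 376235 and 531641 in wild-type and transgenic duodenum against 22276 and 34927 in liver. The transgenic duodenum stood apart in its markers of neighbouring organs and in RNA integrity. Its exocrine pancreas markers other than Zg16, which goblet cells share, summed to 156164 against 5418 in wild-type duodenum (227205 against 67652 with Zg16). Its Brunner gland and stomach markers to 159251 against 3856, and the 3'/5' signal ratio of the Gapdh control probe sets was 3.07, against 0.608 to 1.03 on the other arrays. Less RNA per cell and fewer cells of a type cannot be told apart in any of these bulk tissues.

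Genotype ratios were wider in duodenum than in liver. Over the 8807 members the median log2 ratio was 0.02 in liver and -0.03 in duodenum, with a standard deviation over genes of 0.58 and 0.84. A gene was called in a tissue when its lead probe set, the brightest that passed the rule, was 2-fold or more higher or lower. In liver 5.12% of members were called higher and 3.32% lower, and in duodenum 10.4% were called higher and 10.4% lower. The membership rule set part of these shares. Among the 7523 members at the signal minimum on both liver arrays, 623 were 1.5-fold or more higher and 532 lower. Over all members these liver counts were 1149 and 889. In duodenum they were 1587 and 1254 among 7309 such members, and 1973 and 2060 over all members. Loess scaling of each array pair changed the higher share of the calls from 60.7% to 42.8% in liver and from 49.9% to 62.2% in duodenum. The 18 hybridisation control probe sets (BioB, BioC, BioD and Cre), added to every sample, had a median log2 ratio of -0.68 in liver and 0.05 in duodenum. Scaling on these controls moved the median of all members in liver up to 0.71 and made 98.2% of the liver calls higher ones. Which scaling is right was not tested, and all ratios below are relative to an array-wide scale.

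Most called genes were called in 1 tissue. Of the 451 genes called higher in liver, 90 were also called higher in duodenum, which is 20% of the liver genes, where 10.4% of all members were, and 9.87% of the duodenum genes, where 5.12% of all members were higher in liver. Both lower were 44 genes, or 15.1% of the liver and 4.8% of the duodenum genes, against 10.4% and 3.32% of all members. Opposite calls made 8.43% of the genes higher in liver (38 genes, lower in duodenum) and 9.93% of those lower in liver (29 genes, higher in duodenum), each against 10.4%. Across the 8807 genes the liver and duodenum ratios had a Pearson r of 0.13 and a Spearman rho of 0.13. Among the 2271 genes with a signal of 1000 or more on every array both coefficients were 0.17. These are descriptions across genes, which are not independent, and all liver points come from the same pair of arrays, as do all duodenum points.

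A gene was counted as called in 1 tissue alone when it stayed under 1.5-fold in the other tissue and its log2 ratios differed by 1 or more. By this definition 169 genes were higher and 86 lower in liver alone (1.92% and 0.976% of members), and 472 were higher and 524 lower in duodenum alone (5.36% and 5.95%). Shared higher genes made 1.02% and shared lower genes 0.5% of members. The opposed genes that were higher in liver made 0.431% of members and those that were lower in liver 0.329%. In 3780 genes (42.9%) neither tissue reached 1.5-fold, and 3575 genes lay between these definitions.

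Most of these 1452 classed genes rested on a single probe set. More than 1 usable probe set was present for 435 of them, and in 158, or 36.3%, every probe set went the same way by 1.5-fold or more. These are called agreeing genes. They comprised 5 shared higher genes, 1 shared lower gene, 12 higher and 4 lower in liver alone, 56 higher and 78 lower in duodenum alone, and 2 opposed genes. As a share of the 3092 members with more than 1 usable probe set, the same classes held 0.162%, 0.0323%, 0.388%, 0.129%, 1.81%, 2.52% and 0.0647%. No gene that was higher in liver and lower in duodenum had agreeing probe sets. Agreement did not require every probe set to stay under 1.5-fold in the other tissue. In liver alone 8 of the 12 higher and 2 of the 4 lower genes met that too. In duodenum alone 46 of the 56 higher and 66 of the 78 lower genes did. Agreement was judged only over probe sets that passed the signal rule, so it was not independent of that rule. Without probe sets that can match several transcripts no shared higher and no opposed gene kept an agreeing pair, and 11 of the 56 higher and 51 of the 78 lower genes of duodenum alone did. On the control scale the shared higher genes became 35, those higher in liver alone 147 and those higher in duodenum alone 8.

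**Figure D1:**
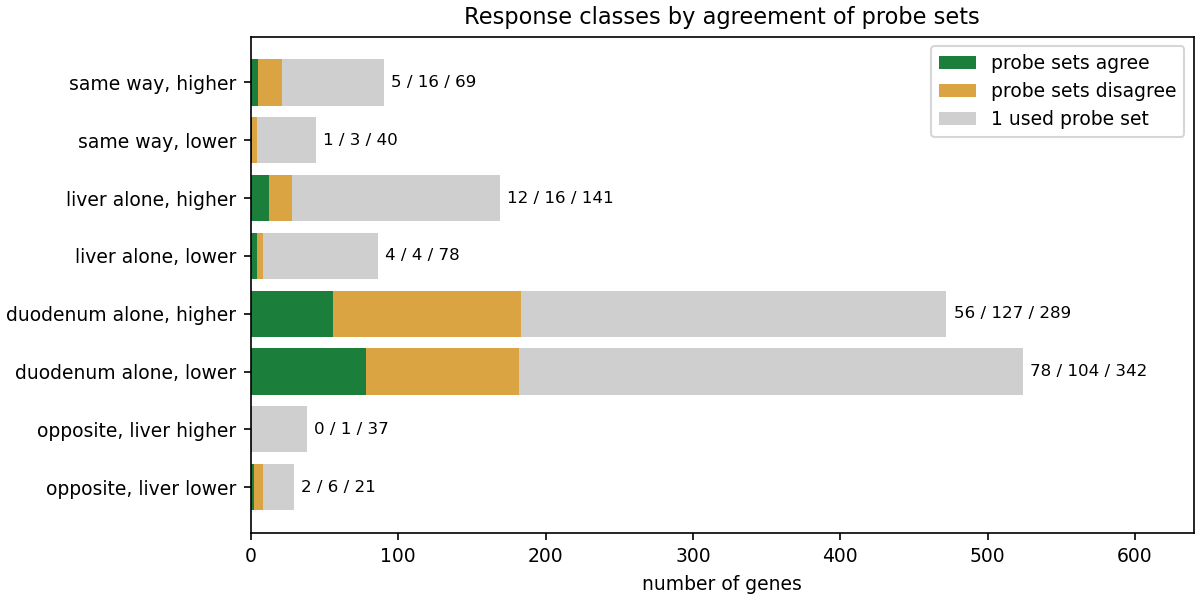
Number of member genes (horizontal axis) in each response class, split into genes whose probe sets agree, genes whose probe sets disagree and genes with 1 usable probe set. The 2 duodenum classes, with 472 and 524 genes, are the longest bars, and agreeing genes are the smallest segment of every class but the liver-alone lower one, where 4 agreed and 4 disagreed.

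**Figure D2:**
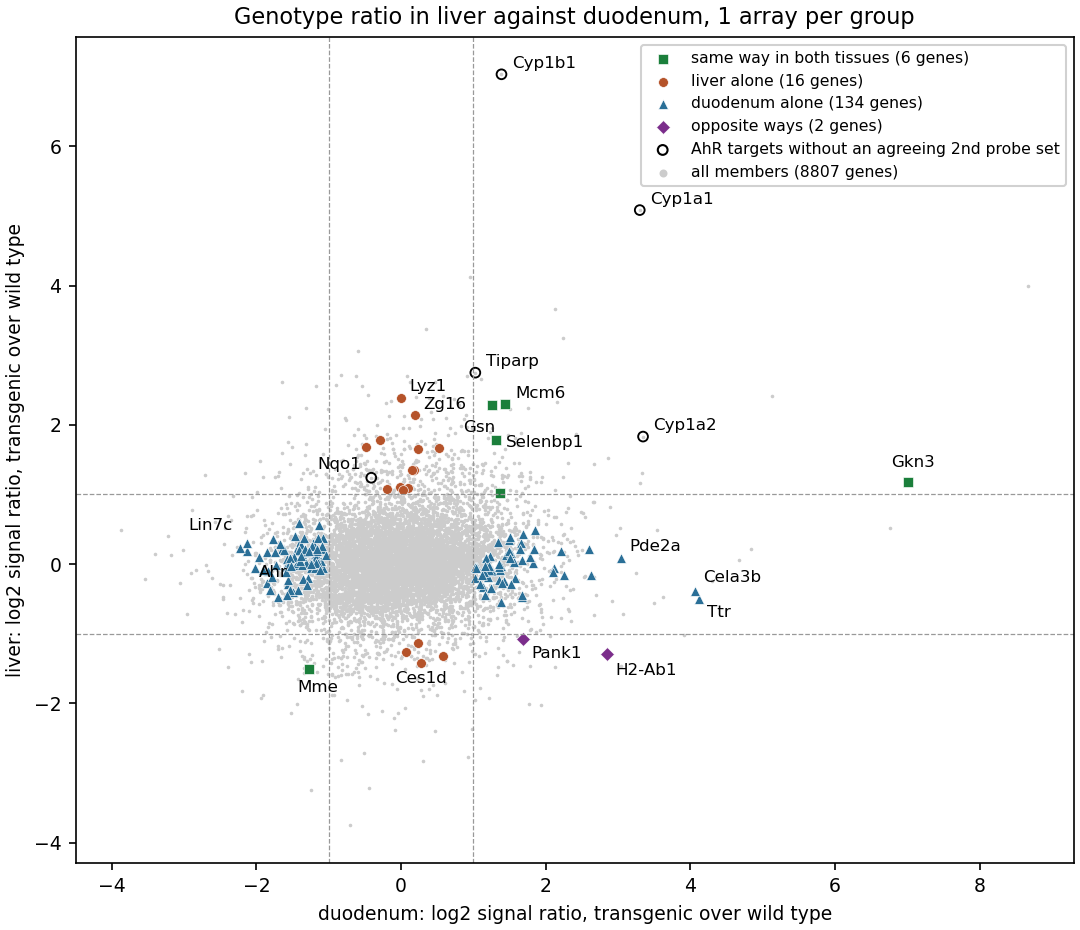
Log2 signal ratio of transgenic over wild type in liver (vertical axis) against duodenum (horizontal axis) for 8807 genes, with the 158 agreeing genes in colour and 5 AhR targets circled. Dashed lines mark 2-fold, and the coloured genes lie mostly along the horizontal axis, where 134 genes were called in duodenum alone.

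The agreeing genes that were higher in both tissues were Selenbp1, Gsn, Mcm6, Gkn3 and Dus1l. The promoter windows of Selenbp1, Gsn and Mcm6 are printed beside that of Cyp1a1 because these are the shared genes with the largest smaller ratio, and those of Cyp1b1 and Tiparp because they are AhR targets on which the tissue contrast below turns. The last 2 were added after their values were seen. Each window is from RefSeq (build GRCm38.p6), runs from 250 bases before to 50 bases after the gene's start, and is written 5' to 3' on the gene's strand. Capitals mark GCGTG or, on the opposite strand, CACGC.
Cyp1a1: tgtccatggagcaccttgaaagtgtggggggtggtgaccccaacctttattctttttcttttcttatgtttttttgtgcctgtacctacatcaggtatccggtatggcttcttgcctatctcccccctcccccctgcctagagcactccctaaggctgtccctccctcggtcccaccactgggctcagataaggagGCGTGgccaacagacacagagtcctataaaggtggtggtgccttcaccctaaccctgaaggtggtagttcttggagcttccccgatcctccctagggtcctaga
Cyp1b1: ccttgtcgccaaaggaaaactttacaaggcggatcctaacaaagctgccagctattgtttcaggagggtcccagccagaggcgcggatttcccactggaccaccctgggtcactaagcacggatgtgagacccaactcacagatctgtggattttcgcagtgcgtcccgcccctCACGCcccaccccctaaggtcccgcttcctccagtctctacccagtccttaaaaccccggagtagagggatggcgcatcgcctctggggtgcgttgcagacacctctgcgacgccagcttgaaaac
Tiparp: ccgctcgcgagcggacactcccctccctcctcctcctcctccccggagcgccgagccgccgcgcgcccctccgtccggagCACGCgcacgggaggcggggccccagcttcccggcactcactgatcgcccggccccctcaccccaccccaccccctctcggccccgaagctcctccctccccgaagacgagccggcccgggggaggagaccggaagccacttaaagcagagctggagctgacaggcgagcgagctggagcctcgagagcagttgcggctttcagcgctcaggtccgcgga
Selenbp1: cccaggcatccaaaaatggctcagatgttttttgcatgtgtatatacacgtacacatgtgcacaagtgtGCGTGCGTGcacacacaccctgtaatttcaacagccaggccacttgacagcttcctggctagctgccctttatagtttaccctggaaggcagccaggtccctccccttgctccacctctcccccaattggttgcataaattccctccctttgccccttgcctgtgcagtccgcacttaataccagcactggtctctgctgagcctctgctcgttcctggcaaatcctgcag
Gsn: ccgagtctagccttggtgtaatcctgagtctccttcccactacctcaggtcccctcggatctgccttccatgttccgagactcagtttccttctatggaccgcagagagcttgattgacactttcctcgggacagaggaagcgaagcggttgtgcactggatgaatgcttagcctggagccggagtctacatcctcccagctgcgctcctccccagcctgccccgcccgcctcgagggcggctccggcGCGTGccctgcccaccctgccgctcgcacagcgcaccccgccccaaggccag
Mcm6: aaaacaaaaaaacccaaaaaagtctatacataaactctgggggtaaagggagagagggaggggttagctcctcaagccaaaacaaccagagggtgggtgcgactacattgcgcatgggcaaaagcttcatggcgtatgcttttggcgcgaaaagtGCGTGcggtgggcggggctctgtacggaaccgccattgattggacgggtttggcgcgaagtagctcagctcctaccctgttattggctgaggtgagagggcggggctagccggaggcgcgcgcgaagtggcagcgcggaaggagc

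The windows lie at chr9:57697363-57697662 (plus strand) for Cyp1a1, chr17:79715012-79715311 (minus) for Cyp1b1, chr3:65528197-65528496 (plus) for Tiparp, chr3:94932833-94933132 (plus) for Selenbp1, chr2:35256109-35256408 (plus) for Gsn and chr1:128359656-128359955 (minus) for Mcm6. Gsn has 3 windows, and the first, shown here, is the only 1 that holds the core. Counting the first transcribed base as 0, the core began at -54 in Cyp1a1, -76 in Cyp1b1, -170 in Tiparp, -95 in Mcm6 and -2 in Gsn. Selenbp1 held a pair of cores in tandem, at -181 and -177. The core is common, so these matches are descriptions and not sites. On either strand it occurred in 32.4% of all 32851 promoter windows and in at least 1 window of 56% of the 7177 members that have one. Of the 5 agreeing shared higher genes 4 held it, and of all 90 shared higher genes 43 of the 74 with a window did (58.1%). Among agreeing genes of the duodenum it was present for 44 of 66 lower genes and 25 of 49 higher genes with a window.

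Selenbp1 encodes selenium-binding protein 1, a methanethiol oxidase. The liver pools read 10672 (wild type) and 36597 (transgenic) and the duodenum pools 799 and 1980, in the order kept for every pair of values below. That is 3.43-fold higher in liver and 2.48-fold higher in duodenum. A second probe set gave log2 ratios of 1.86 and 1.01, so both probe sets were higher in both tissues. Liver was the brighter tissue in either genotype.

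Gsn encodes gelsolin, which severs and caps actin filaments. It read 308 and 1497 in the liver pools and 2165 and 5202 in duodenum, a log2 ratio of 2.28 and 1.26. All 4 probe sets were higher in both tissues, with ratios of 1.88 to 2.29 in liver and 1.17 to 2.01 in duodenum. The order of the tissues did not hold over probe sets, since the difference ran from -0.13 to 1.02.

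Mcm6, a subunit of the replicative DNA helicase, read 57.8 and 635 in the liver pools, the first of them under the floor of 129.3 below which signals were not read as levels. This is at least 4.91-fold higher, on a probe set that met the signal rule in liver through the transgenic array alone. In duodenum it read 389.5 and 1059, or 2.72-fold higher. Dus1l, a tRNA dihydrouridine synthase, was 2.04-fold higher in liver (1798.5 and 3661) and 2.59-fold higher in duodenum (473 and 1226.5).

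Gkn3 encodes a gastrokine, a secreted protein of the gastric epithelium. Its signal was 429.7 and 978 in liver but 432 and 55468 in duodenum. The ratio was 2.28-fold in liver and 129-fold in duodenum, and both probe sets had it far higher in duodenum, with differences of -5.82 and -4.25 on the log2 scale. Tff2, a trefoil peptide of Brunner glands and stomach, had the largest duodenum ratio of any member, with 226 in wild-type and 92302 in transgenic duodenum, and 84.2 and 2059 in liver on its 1 probe set. These genes belong to the Brunner gland and stomach markers, whose sum was 41.3-fold higher in the transgenic duodenum pool and 1.21-fold higher in transgenic liver. Of the list's other genes Pgc, a pepsinogen, read 46.2 and 2787 in duodenum. Muc5ac, a mucin of the stomach surface, Atp4a, of parietal cells, and Cblif, gastric intrinsic factor, read 82.2, 121 and 43.1 in the transgenic duodenum pool, all under the floor. The gastric genes Gkn1, Gkn2 and Tff1 read 21.8, 124.5 and 2142 in wild-type and 482, 1116 and 6353 in transgenic duodenum, whereas Atp4b, also of parietal cells, read 573 and 498. The part of dissection or tissue make-up in the Gkn3 and Tff2 ratios was not tested.

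The 1 agreeing gene that was lower in both tissues was Mme, which encodes neprilysin, a membrane peptidase of the brush border and of liver cells. It read 1482 and 522 in the liver pools and 12876 and 5349.5 in duodenum. The ratios were 2.84-fold and 2.41-fold lower. The second probe set was lower as well, with log2 ratios of -1.30 in liver and -2.69 in duodenum.

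**Figure D3:**
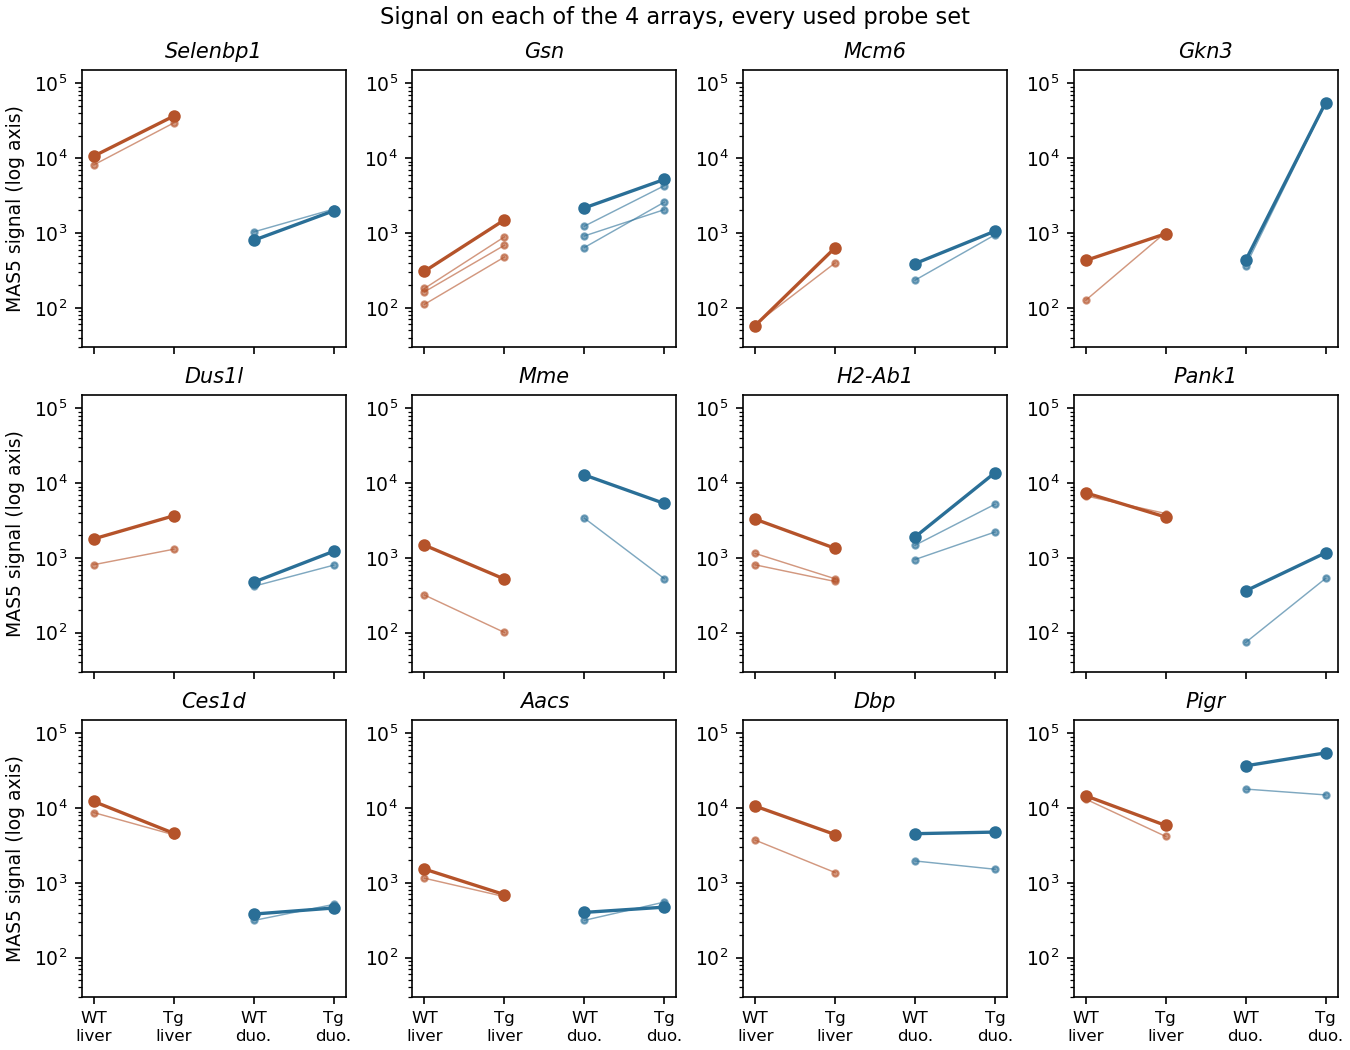
Signal on a log axis on each of the 4 arrays for 12 genes, with the lead probe set as a thick line and the other usable probe sets as thin lines. Selenbp1, Gsn, Mcm6, Gkn3 and Dus1l climb from wild type to transgenic in both tissues, Mme descends in both, and H2-Ab1 and Pank1 descend in liver and climb in duodenum.

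The AhR target genes were higher in transgenic liver as a group, and less uniformly so in duodenum. Of 9 members on this list, out of 13 genes on the array, 8 were 1.5-fold or more higher in liver and none lower, where 13% of all members were higher. In duodenum 4 were higher and 1 lower, where 22.4% and 23.4% of all members were. The list's median log2 ratio was 1.37 in liver and 0.25 in duodenum, and 7 of the 9 had the larger ratio in liver. In each tissue 2 of the 9 reached the signal minimum on the transgenic array alone, so the rule left those no other direction there. Of the 7 that reached it in wild-type liver 6 were higher. Of the 9, Tiparp alone has more than 1 usable probe set, so agreement could not be checked for the others.

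Cyp1a1, which hydroxylates polycyclic aromatic hydrocarbons, read 1404 and 47626 in liver and 2109.5 and 20796 in duodenum. It was 33.9-fold higher in liver and 9.86-fold higher in duodenum. Cyp1b1, its relative that also oxidises steroids, read 210 and 27589.7 in liver but 133 and 348 in duodenum. The ratio was 131-fold against 2.62-fold, and this gave Cyp1b1 the highest difference of all members, 5.65 on the log2 scale. Its second probe set was below the signal minimum in duodenum (71.1 and 96.2) and read 264 and 10966 in liver.

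Cyp1a2, the mainly hepatic member of the family, had the larger ratio in duodenum. It read 17430.2 and 62038 in liver, or 3.56-fold higher, and 19.1 and 1315 in duodenum, or at least 10.2-fold higher. With a wild-type duodenum signal under the floor, the log2 difference was at most -1.52. Xdh, xanthine dehydrogenase, was the other list member with a difference below 0, with log2 ratios of -0.12 in liver and 0.25 in duodenum.

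Tiparp, a mono-ADP-ribosyltransferase that restrains AhR, was higher in liver on all 3 probe sets, with log2 ratios from 1.88 to 3.07. In duodenum the probe sets disagreed, from -0.90 to 1.03. The lead probe set read 708 and 4758 in liver and 1842 and 3754 in duodenum, whereas another read 497 and 267 in duodenum. Ahrr, the AhR repressor, was not a member because its duodenum signals of 28.6 and 106 stayed under the minimum. In liver it read 8.4 and 1456.

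Nqo1, a quinone reductase shared by AhR and NRF2, was 2.36-fold higher in liver (695 and 1641) and read 827 and 622 in duodenum. Ugdh, which makes UDP-glucuronic acid, was 2.58-fold higher in liver (5745 and 14813) and 1.40-fold lower in duodenum (16468 and 11799). Nfe2l2, which encodes NRF2 itself, was 1.69-fold higher in liver and 2.24-fold lower in duodenum. Cd36, a fatty acid transporter, was 1.87-fold higher in liver (3526 and 6594) and 1.30-fold lower in duodenum (4979 and 3822.5). All 3 Cd36 probe sets had the larger ratio in liver, with differences from 1.28 to 1.98.

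The receptor gene itself was lower in duodenum. Ahr read 2019.8 and 2274 in the liver pools and 2123 and 590.2 in duodenum, so it was 1.13-fold higher in liver and 3.60-fold lower in duodenum. The second Ahr probe set was also lower in duodenum (508 and 288) but read 324 and 860 in liver, a log2 ratio of 1.41. Where either probe set lies relative to the transgene was not tested, so Ahr does not serve as a check of the genotype labels. Arnt, its partner, read 592 and 595 in liver and 1002 and 657 in duodenum, and its second probe set went the other way in duodenum, with a ratio of 1.17.

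The 2 agreeing opposed genes, H2-Ab1 and Pank1, were both lower in liver and higher in duodenum. H2-Ab1 encodes the beta chain of the MHC class II molecule I-A, which presents peptides to CD4+ T cells. It read 3299 and 1344 in the liver pools and 1907 and 13783 in duodenum. The ratio was 2.45-fold lower in liver and 7.23-fold higher in duodenum, a difference of -4.15. All 3 probe sets kept both directions, with differences from -4.15 to -1.96.

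Pank1, pantothenate kinase 1, catalyses the first step of coenzyme A synthesis. It was 2.11-fold lower in liver (7419 and 3519) and 3.23-fold higher in duodenum (362.5 and 1172). The second probe set gave -0.78 in liver and 2.04 in duodenum. On the control scale neither H2-Ab1 nor Pank1 kept a 2-fold lower call in liver.

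Of the other MHC class II genes, H2-Aa, H2-Eb1, Cd74 and H2-DMa had the directions of H2-Ab1 in both tissues on the lead probe set, with smaller liver ratios. H2-Aa, the alpha chain of I-A, read 7402 and 4340.5 in liver and 8171 and 38039.6 in duodenum. H2-Eb1 read 2094 and 1543 in liver and 2754 and 17799.9 in duodenum. Cd74, the invariant chain, read 2873 and 1981 in liver and 4313 and 32693 in duodenum. H2-DMa, which helps load peptides, was 1.45-fold lower in liver and 2.60-fold higher in duodenum on the lead. Its second probe set was higher in both tissues, with log2 ratios of 0.48 in liver and 1.75 in duodenum, so its liver direction was not settled. Ctss, the protease that trims the invariant chain, was within 1.24-fold in both tissues.

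Over the 6 members of this list, 5 were 1.5-fold or more higher in duodenum and 2 were 1.5-fold or more lower in liver. The median was -0.54 in liver, which turned to 0.14 on the control scale, and 2.46 in duodenum. Ciita, the transcriptional activator of these genes, was not a member, with 187 and 107 in liver and 279.8 and 213.5 in duodenum. H2-Oa and H2-Ob, which B cells express, were at or under 268 on every array. In duodenum H2-Oa read 268 and 234 and H2-Ob 210 and 55.1, so both were lower in the transgenic pool. H2-DMb2, also not a member, went the other way in duodenum, with 104 (under the floor) and 245, and read 206 and 220 in liver. The sum over 11 macrophage and Kupffer cell markers was 36216 and 31961 in liver and 9743 and 11230.3 in duodenum, and B cell and plasma cell markers summed to 59224.5 and 88444 in duodenum. The immunoglobulin genes Igha and Ighm carried that rise, each read on its brightest probe set. For Igha the liver minus duodenum difference of -1.32 became 0.53 with the mean over probe sets and 0.23 with a floor at the 60th percentile. The other 7 B cell and plasma cell markers were all lower in transgenic duodenum, from 41624 to 27223 in sum, with Ms4a1, which encodes CD20, at 865 and 145. The part of cell make-up in the class II ratios was not tested.

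**Figure D4:**
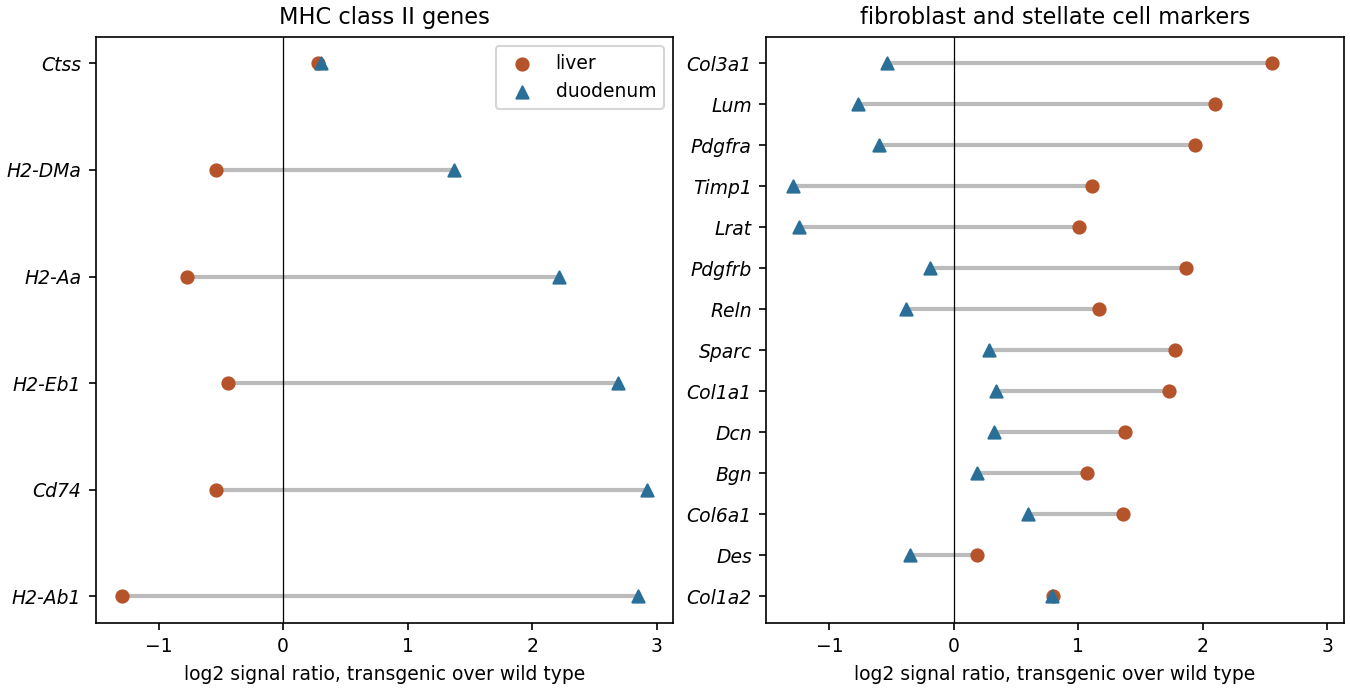
Log2 signal ratio of transgenic over wild type for each member of the MHC class II list and of the fibroblast and stellate cell markers, with liver and duodenum as separate symbols. Values are those of the lead probe set. In the class II genes other than Ctss duodenum lies between 1.38 and 2.92 and liver below 0, and in all 14 fibroblast markers liver lies above duodenum.

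In liver alone 12 agreeing genes were higher. Lyz1, a lysozyme of Paneth cells, read 1418 and 7437 in liver and 56723 and 56959.9 in duodenum, a 5.24-fold liver ratio. Zg16, a lectin of goblet cell and pancreatic granules, was 4.40-fold higher in liver (401 and 1765) and read 62234 and 71041 in duodenum. Both genes were far brighter in duodenum in either genotype. Their lead probe sets are of the kind that can match several transcripts. Whether the Lyz1 probe sets also read the lysozyme gene Lyz2 was not tested.

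Itga6, the integrin alpha 6 subunit, was 3.20-fold higher in liver (221 and 708), and Lgals1, galectin-1, was 3.42-fold higher (532 and 1819.6). Their second probe sets gave log2 ratios of 1.44 and 1.65 in liver. In duodenum these second probe sets gave 0.56 and 0.95, where the lead probe sets gave -0.49 and -0.29. Gstm3, a glutathione transferase, read 2679 and 8408.5 in liver and 7220.2 and 8500.1 in duodenum. Tpm1, a tropomyosin, was 2.11-fold higher on the lead probe set, whose duodenum log2 ratio was -0.19, but its second probe set gave 1.36 in liver and -1.85 in duodenum. Id4, an inhibitor of basic helix-loop-helix factors, was 2.54-fold higher in liver and Eid1, which inhibits EP300, 2.56-fold. Their lowest duodenum log2 ratios over probe sets were -0.73 and -0.77. The other agreeing genes of this class were Nup155, Slc45a2, Myo6 and Kdf1, with liver log2 ratios of 1.10, 1.07, 1.10 and 1.66.

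Markers of several non-hepatocyte cells were higher in the transgenic liver pool as well. The 14 fibroblast and stellate cell markers, all of them members and above the floor on every array, summed to 14031 and 38168 in liver and to 16872 and 16354 in duodenum. Among them 13 of 14 were 1.5-fold or more higher in liver, against 13% of all members, and 2 were higher and 4 lower in duodenum. For 5 of the 14 the rule was met in liver through the transgenic array alone, which set part of the liver count. Of the 9 at the minimum in wild-type liver 8 were higher. The list's median was 1.37 in liver and -0.27 in duodenum. Col3a1, a fibrillar collagen chain, read 971 and 5719 in liver and 5640 and 3883 in duodenum. Lum, the proteoglycan lumican, was 4.28-fold higher in liver and 1.71-fold lower in duodenum. Dcn, decorin, read 4812 and 12463 in liver and 2375 and 2970.4 in duodenum. Lrat, the retinol esterifier of stellate cells, read 457 and 919.9 in liver and 898 and 379 in duodenum.

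Intestinal and ductal epithelial markers were higher there too in sum, from levels below those of wild-type duodenum. Goblet cell markers summed to 1468 and 3993 in wild-type and transgenic liver, Paneth cell markers to 1804 and 8032, enterocyte markers to 22276 and 34927, and cholangiocyte markers to 700.5 and 7173. In each of these lists 1 gene carried most of the rise. For the enterocyte list it was Apoa4, which read 14973 and 22187 in liver. Without Zg16 the goblet markers summed to 1066.5 and 2228, without Lyz1 the Paneth markers to 385.6 and 595, and without Prom1 the cholangiocyte markers to 221 and 1088. Of the goblet markers Clca1 stayed at 10.7 and 18.5 in liver and Fcgbp at 97.3 and 96.6, and Defa31, a Paneth cell defensin, at 31 and 36.7, all under the floor. Prom1, a ductal and progenitor cell surface protein, read 479 and 6085 in liver and 760.1 and 3330.2 in duodenum. Krt20 read 15.7 and 399 in liver and 22791 and 30537 in duodenum. The part of these cells in the liver-alone genes was not tested.

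The 4 agreeing genes that were lower in liver alone were Pigr, Ces1d, Aacs and Dbp. Pigr, the receptor that carries polymeric immunoglobulin across epithelia, read 14584 and 5854 in liver and 36700 and 54739 in duodenum. Ces1d, a carboxylesterase, was 2.66-fold lower in liver (12254 and 4600.5) and read 383 and 461 in duodenum. Aacs, which activates acetoacetate for lipid synthesis, was 2.19-fold lower in liver and 1.18-fold higher in duodenum. The second probe sets of Ces1d and Aacs gave duodenum log2 ratios of 0.71 and 0.81. Dbp, an output factor of the circadian clock, was 2.40-fold lower in liver (10626 and 4428) and read 4546 and 4776 in duodenum. On the control scale no agreeing gene remained in this class.

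Among 13 members of the clock list 4 were lower by 1.5-fold or more in liver and none higher, where 10.1% and 13% of all members were. In duodenum 4 were higher and 3 lower. The liver median was -0.15, and 0.53 on the control scale. Nr1d1, the repressor REV-ERB alpha, read 758 and 345 in liver and 613 and 1225 in duodenum. Nr1d2 was 2.46-fold lower in duodenum and 1.23-fold lower in liver, with agreeing probe sets. The sources used here do not state the time of day at which tissues were taken.

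In duodenum alone 56 agreeing genes were higher. Ttr, the thyroid hormone and retinol carrier transthyretin, read 164 and 2849 in duodenum and 72616 and 51557 in liver. It was 17.3-fold higher in duodenum, and all 3 probe sets had a log2 ratio of 2.31 or more. Other hepatocyte genes varied in duodenum. Alb, albumin, read 216 and 299, and Fgb and Ahsg were under the floor in both duodenum pools, at 23.9 and 5.7 and at 126 and 72.7. Fga, the fibrinogen alpha chain, read 112.5 and 324.7 there, at least 2.51-fold higher.

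Cela3b, a pancreatic elastase, was 16.7-fold higher in duodenum (611 and 10188) and read 643 and 493 in liver. Its second probe set was also higher in duodenum (179 and 49510, a log2 ratio of 8.11), but in liver it read 69.1 and 532, at least 4.11-fold higher. Other digestive enzymes of the pancreas were higher as well. Cela2a read 22.2 and 14014 in duodenum, Cela1 1345 and 16599.6, and Prss2, a trypsin, 509 and 7670.3. Of 17 pancreas markers on the array, 9 were above the floor in wild-type and 16 in transgenic duodenum, and Cpa1 and Ctrb1, which were not members, went from 16.7 and 51.9 to 12675 and 20058. The list's sum in liver was 7172 and 6871. Without Zg16 the sum was 5418 and 156164 in duodenum and 6771 and 5106 in liver. How much pancreas the duodenum pools held, and its part in these ratios, was not tested.

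Genes with no place on that list were also higher in duodenum alone. Pde2a, a cyclic nucleotide phosphodiesterase, was 8.23-fold higher (514.5 and 4232) and read 1561 and 1666 in liver. Clu, the extracellular chaperone clusterin, was 6.17-fold higher (1525 and 9401), and all 4 of its probe sets lay between 2.62 and 3.56 on the log2 scale. F5, coagulation factor V, was 4.76-fold higher, Map1lc3a, an autophagosome protein, 6.04-fold, Ace, the angiotensin-converting enzyme of the brush border and endothelium, 4.30-fold, and Nfix, a nuclear factor I protein, 4.33-fold. In liver these 6 genes stayed within 1.17-fold on the lead probe set. The second probe sets of F5, Map1lc3a and Ace gave smaller duodenum log2 ratios, 1.12, 0.65 and 0.83, against 2.25, 2.60 and 2.10 on the lead. Further members of the class were Cd44 (2.21 on the log2 scale), Lmna (1.83), Calr (1.24) and Rpn1, whose 5 probe sets agreed (1.26 on the lead).

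In duodenum alone 78 agreeing genes were lower, the largest class. Ctdspl2, a phosphatase-like protein, had the highest difference, with 529 and 622 in liver and 1320.1 and 282 in duodenum. Lin7c, a scaffold of cell junctions, was 4.38-fold lower in duodenum (2389 and 546), and its 4 probe sets lay between -2.58 and -1.77. In liver the same 4 lay between 0.23 and 0.43.

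Rhobtb3 was 4.36-fold lower in duodenum, Nbeal1 3.40-fold and Pkn2, a protein kinase, 3.91-fold. Twsg1, an extracellular modulator of BMP signalling, was 2.66-fold lower, and Fam210b, a mitochondrial protein, 4.07-fold. The weakest probe sets of Rhobtb3, Nbeal1, Pkn2 and Fam210b gave duodenum log2 ratios of -0.83, -0.62, -1.03 and -0.82. Ahr, described above, belongs to this class. On the lead probe set these genes lay between 1.04-fold lower and 1.499-fold higher in liver. The second probe sets of Ahr and Twsg1 were past that, with liver log2 ratios of 1.41 and 1.02. Several others act in membrane traffic, among them Vamp7 (-1.52 in duodenum), Snap23 (-1.56), Bet1 (-1.91) and Rab18 (-1.58). These 4 were chosen after their values were seen, and no such group was counted.

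Gene length and RNA integrity were set beside these classes. The median genomic span was 32.2 kb for the 78 agreeing lower genes and 19.4 kb for the 56 agreeing higher genes of duodenum alone, against 23.4 kb for all members. For the 12 higher in liver alone it was 8.77 kb. The 3'/5' ratio of the beta-actin control probe sets was 2.69 in transgenic duodenum and 1.38 to 1.77 on the other arrays. The part of RNA integrity in the duodenum classes was not tested. The 169 genes higher in liver alone had median signals of 215 in wild-type liver and 725 in wild-type duodenum. All members had 796.5 and 829. The 215 lay under the signal minimum of 300, so many of these genes met the rule in liver through the transgenic array alone. The membership rule and the liver call therefore set part of this low level, which is not a separate trait of the class.

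Among metabolic gene lists cholesterol synthesis had the lowest liver median. It was -0.79 in liver and 0.09 in duodenum over 20 members, and the liver median came to -0.11 on the control scale. In liver 14 of the 20 were 1.5-fold or more lower, where 10.1% of all members were, and none was higher. In duodenum 2 were higher and 4 lower. The difference was below 0 in 18 of 20, with a median of -0.58 that turned to 0.16 on the control scale. Mvk, mevalonate kinase, read 835 and 158 in liver and 481 and 665 in duodenum. Fdft1, squalene synthase, was 1.98-fold lower in liver (4563 and 2303) and 1.83-fold higher in duodenum (537 and 984). Fdps, farnesyl diphosphate synthase, was lower by almost the same ratio in both, 1.71-fold and 1.71-fold. Srebf2, the transcription factor that drives this pathway, was 1.39-fold higher in liver and 1.13-fold lower in duodenum, and its second probe set turned the difference.

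For fatty acid and triglyceride synthesis 10 of 22 members were 1.5-fold or more higher in duodenum and 3 lower, with a median of 0.50, where 22.4% and 23.4% of all members were higher and lower. In duodenum 2 of the 22 met the rule through the transgenic array alone and 2 through the wild-type array alone, which set part of these counts. Of the 18 at the minimum on both duodenum arrays 8 were higher and 1 lower. The liver median was -0.25, or 0.43 on the control scale, which also turned the median difference from -0.73 to 0.01. Fasn, fatty acid synthase, read 4985 and 2819 in liver and 241 and 1228 in duodenum. Scd1, a desaturase, read 17885 and 18882 in liver and 549 and 233 in duodenum. For fatty acid oxidation and ketogenesis 9 of 23 were lower in liver and none higher, with a median of -0.42 that turned to 0.27 on the control scale. The background in liver was 10.1% lower and 13% higher. In duodenum 3 were higher and 5 lower, shares below and near those of all members. Acaa1b, a peroxisomal thiolase, was 2.15-fold lower in liver (30063 and 13970) and 2.26-fold higher in duodenum (1135 and 2567.5). Ppargc1b, a coactivator of nuclear receptors, read 1323 and 193 in liver and 1412 and 2679 in duodenum.

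Cytochromes and conjugating enzymes split in other ways. Of 13 members of the Cyp2 and Cyp3 list 6 were lower and 1 higher in liver, where 10.1% and 13% of all members were, and the median of -0.54 turned to 0.14 on the control scale. Cyp2b10 was 1.72-fold lower in liver (1841 and 1070.5) and 2.35-fold higher in duodenum (8432 and 19828), with all 3 probe sets on the same side. Cyp2c55 was 3.13-fold higher in liver and 1.55-fold lower in duodenum. Of 30 conjugation enzymes 13 were lower and 3 higher in duodenum, against 23.4% and 22.4% of all members, with a median of -0.48. In liver 7 were higher and 4 lower, against 13% and 10.1%. Gstk1, a glutathione transferase, read 12691 and 11862 in liver and 2489 and 8314 in duodenum.

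Cell cycle and DNA replication genes had similar medians in both tissues, 0.79 in liver and 0.83 in duodenum. Of 21 members 13 were 1.5-fold or more higher in liver and 12 in duodenum, where 13% and 22.4% of all members were, and 2 and 3 were lower. Only 21 of the 39 listed genes on the array were members, and 8 of the 13 higher in liver reached the signal minimum on the transgenic liver array alone, so the membership rule set part of that count. Of the 13 members at the minimum in wild-type liver 5 were higher and 2 lower. Helicase subunits were among the higher ones, with Mcm5 at 21.3 and 605 in liver and 708 and 2005 in duodenum and Mcm4 at 262 and 683 and at 434.5 and 839. Pcna, the replication clamp, was 1.58-fold higher in liver and 2.11-fold lower in duodenum. Proliferation markers were not uniformly higher. Top2a read 325 and 158 in liver and 713 and 791 in duodenum.

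Proteasome subunits were near 0 in liver and higher in duodenum. The median was 0.07 in liver, with no member past 1.5-fold, and 0.55 in duodenum, where 14 of 31 were higher and 1 lower, against 22.4% and 23.4% of all members. The median difference of -0.50 turned to 0.23 on the control scale. Psmd3 and Psmd4, of the regulatory particle, were 2.60-fold and 2.91-fold higher in duodenum. Ribosomal proteins showed the smallest spread. None of 23 reached 1.5-fold in liver and 1 did in duodenum, Rps19 at 1.76-fold lower.

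Medians of the other lists lay between -0.40 and 0.50 in both tissues, except for the antimicrobial genes. Of 7 such members, from 25 listed genes on the array, 6 were higher in liver, with a median of 1.39, against 0.31 in duodenum. For 4 of the 6 the rule was met in liver through the transgenic array alone, which set part of that count, and of the other 3 members 2 were higher and 1 lower. Lyz2, the macrophage lysozyme, read 1564 and 4153 in liver and 7517 and 5094 in duodenum. Reg1 was at least 2.79-fold higher in liver and 1.78-fold lower in duodenum. NRF2 targets had medians of 0.29 and -0.01 over 21 members, with Gclm, which helps make glutathione, at 2.58-fold higher in duodenum on a lead probe set that the second opposed. Interferon response genes had medians of -0.38, which turned to 0.30 on the control scale, and -0.22 over 27 members, and Tap1, the peptide transporter, was 1.93-fold lower in liver and 3.44-fold higher in duodenum. For metal handling Slc30a1, a zinc exporter, was at least 5.06-fold higher in duodenum and 1.29-fold lower in liver, and Tfrc, the transferrin receptor, was 2.78-fold higher in liver and 1.16-fold lower in duodenum. These are lead probe set values, and no member of the metal handling list was an agreeing gene.

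**Figure D5:**
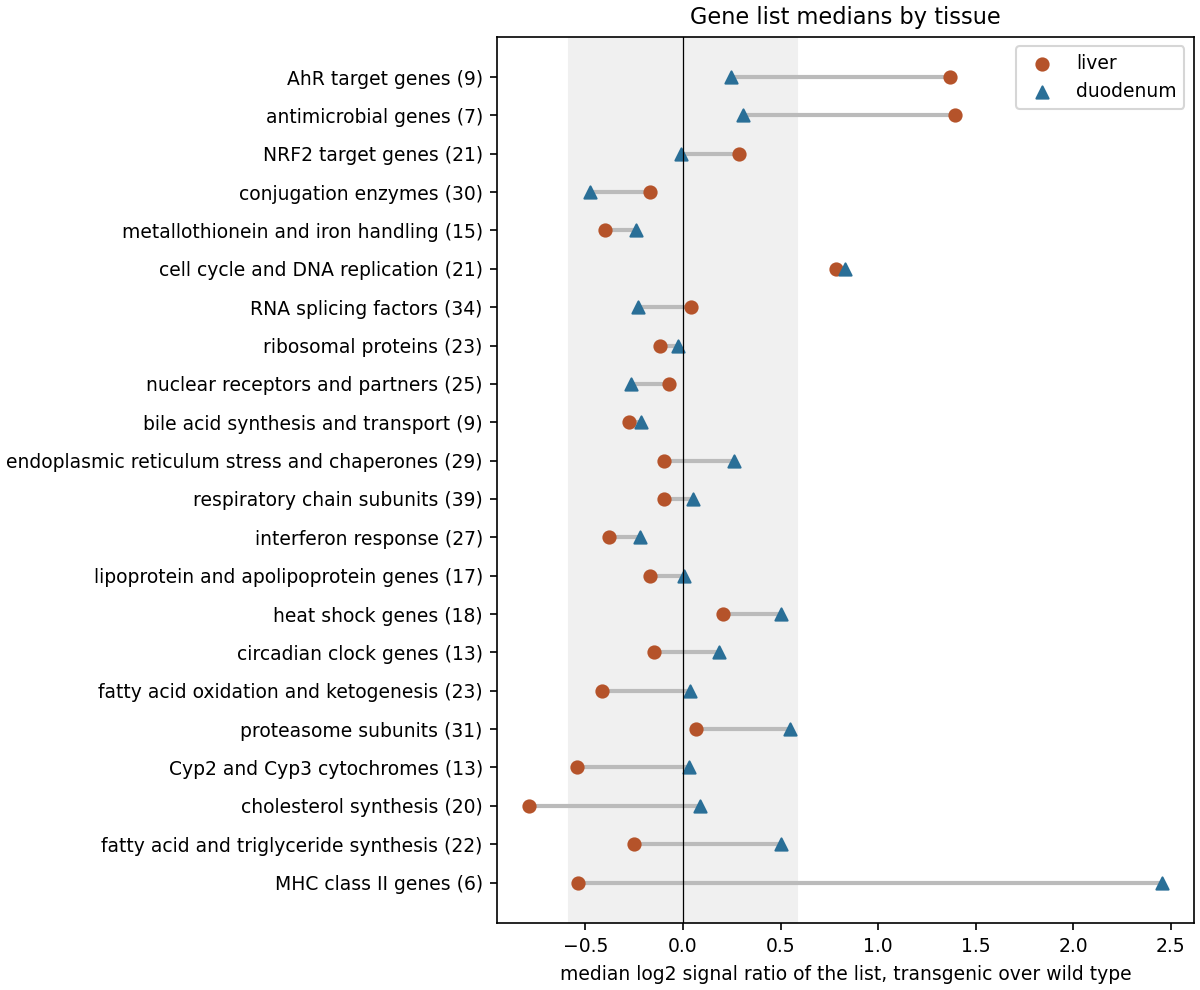
Median log2 signal ratio of transgenic over wild type in liver and duodenum for each gene list, with the number of members in brackets and the band within 1.5-fold shaded. The MHC class II list has the widest gap, from -0.54 in liver to 2.46 in duodenum, and the cell cycle list the closest pair beyond the band, at 0.79 and 0.83.

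Probe sets of the same gene give the only measure of precision in these data, and it covers measurement and not biology. Over the 3092 genes with more than 1 usable probe set, the ratios of the lead and second probe set had a Pearson r of 0.39 in liver, 0.39 in duodenum and 0.36 for the difference. The spread implied for 1 probe set was 0.41, 0.70 and 0.77 on the log2 scale. Among the 530 such genes with a signal of 1000 or more on every array, the correlation was 0.61 in liver but 0.39 in duodenum, and the spread 0.24 and 0.58. A difference between tissues of less than about 0.77 in a single probe set is therefore within the disagreement of probe sets for 1 gene. At the edge of the membership rule, Ccdc86 and Dcaf17 just passed with 300 in their dimmer tissue, and Haus3 and Antxr1 just missed it with 299.8 and 299.9.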

How the data were processed

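The deposited table holds 1 signal per probe set for 45101 probe sets and 4 arrays. Each value is a linear intensity that the authors computed with MAS5 (per the submitters' processing notes). Each array's mean after trimming 2% at either end was 500.0. Array number, 1 per group, limits the precision, and depth has no meaning here. Gene symbols came from the platform annotation, updated through RefSeq gene tables of GRCm38.p6. Of the probe sets 34958 had 1 symbol, 932 several, and 9211 were not listed.

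From there, signals under a floor of 129.3, the mean over arrays of the 40th percentile, were raised to it. A fold with 1 array under the floor is written as at least that fold. Ratios, classes and agreement followed the definitions in the text, computed with Python 3.11.15, pandas 2.3.3 and numpy 2.4.6 and tested on simulated data. Named genes were the 8 agreeing genes per class with the largest smaller ratio (shared, opposed) or difference (1 tissue), 9 AhR genes, and the 2 highest and 2 lowest differences of each list with 5 or more members. H2-Aa, H2-Eb1, Tff2, Lyz2, Dcn, Lrat, Prom1, Mcm4, Mcm5, Top2a, the promoters noted in the text and the non-member markers were chosen after their values were seen. Members and all 22 gene and 17 marker lists were chosen with earlier results of these data known.

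Alternatives covered the floor, the signal minimum, the probe set rule, the agreement rule, and quantile, loess, median and control-probe scaling within a tissue. Enteroendocrine and red cell markers had no member, and T cell, mast cell and adipocyte markers 1 each.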

Additional observations from a re-analysis of the deposited data

Results flagged for a closer look

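The genotype ratio pointed opposite ways in liver and duodenum on every usable probe set for H2-Ab1 and Pank1. The liver ratio minus the duodenum ratio was -4.15 on the log2 scale for H2-Ab1 and -2.77 for Pank1. With 1 array per group the difference between tissues was not tested.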

How the results depend on the processing

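No paired analysis was possible because each group was 1 array and the labels carry no replicate numbers, so leaving out a replicate was not possible either. The median difference between tissues was 0.05, became 0.79 on the control scale and -0.061 with loess, and lay between -0.02 and 0.14 under the other 8 settings. Counts of agreeing genes are given in the order shared higher, shared lower, liver alone higher, liver alone lower, duodenum alone higher, duodenum alone lower, opposed with liver higher, opposed with liver lower. They were 5, 1, 12, 4, 56, 78, 0 and 2. On the control scale they were 35, 0, 147, 0, 8, 53, 9 and 0, where the control probe sets had a median log2 ratio of -0.68 in liver. With no agreement required they were 90, 44, 169, 86, 472, 524, 38 and 29, and with agreement in direction alone 11, 2, 22, 6, 100, 125, 0 and 5. Without probe sets that can match several transcripts, which leaves fewer genes with a second probe set, they were 0, 1, 7, 1, 12, 68, 0 and 0. The mean over probe sets gave 8, 2, 15, 8, 68, 118, 0 and 2. A signal minimum of 600 gave 4, 0, 3, 2, 48, 44, 0 and 2, and none above the floor 4, 3, 21, 6, 56, 90, 0 and 3. A floor at the 60th percentile gave 4, 0, 5, 4, 52, 52, 0 and 2, and loess 6, 1, 7, 7, 57, 55, 0 and 3. Quantile scaling, median centring and no floor kept every count within 1.5-fold. A rule added after the data were seen, with every probe set under 2-fold in the other tissue, gave 11, 4, 54 and 73 genes called in 1 tissue. Among differences of named genes 1360 values moved by less than the spread between probe sets, 44 by more, and 16 values of at least 1.5-fold turned sign, as did 17 smaller ones. The cause was not tested. For Mme the difference of -0.24 became 0.57 with the mean over probe sets. With a floor at the 60th percentile the difference became -0.19 for Mcm6, -0.23 for Acot4 and 0.23 for Igha. With the mean over probe sets it became -0.15 for Arnt, -0.33 for Srebf2, -0.049 for Me1, -0.070 for Cox6c and 0.53 for Igha. Without probe sets that can match several transcripts it became -0.88 for Me1 and 0.0089 for Mcm2. With loess it became -0.069 for Acot4 and -0.13 for Slco1b2. On the control scale it became 0.035 for Rpl38, 0.10 for Rpl10a, 0.15 for Mep1a and 0.0025 for Adgre1, and the median of the fatty acid and triglyceride synthesis list became 0.0074. Signal near the floor limits what can be read from the dim genes.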
